A study of Mus musculus with 18 samples.

Results

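Matrix metalloproteinases (MMPs) and their tissue inhibitors (TIMPs) were followed in sorted cells of the mouse retina. The 10 genes were taken by name from the count table: 6 of its 23 MMP genes (Mmp2, Mmp9, Mmp12, Mmp14, Mmp15 and Mmp24) and all 4 TIMP genes (Timp1 to Timp4), out of 55487 genes. They were picked with earlier results from these libraries known, among them the reads of Mmp12 in knockout microglia. The Mmp12 difference is therefore described without a p-value, and where Mmp12 enters a count of calls nothing is read from it. Counts over the 10 genes support nothing by themselves.

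MMPs are zinc-dependent proteases that cut proteins of the extracellular matrix and of cell surfaces, and are made as inactive precursors. TIMPs are small secreted proteins that block the active site. MMP14 sits in the cell membrane, and with TIMP2 as an adaptor it activates the precursor of MMP2. In the eye, TIMP3 is known as a component of the membrane under the pigment epithelium, and MMP12 is known as the elastase of macrophages.

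Retinas were dissociated and sorted into viable CD11b+ cells, called microglia here, and viable CD11b- cells, called retina here. Controls were Bmal1f/f mice, with floxed copies of the clock gene Bmal1, and knockouts were Bmal1-mg/-mg mice, named as microglial knockouts of Bmal1. There were 4 control and 5 knockout libraries of either fraction. The recombinase driver, the age, sex and the number of animals per library are not given in the sources used here, nor whether libraries are separate animals, so a p-value reflects only how much these samples vary, which may be technical.

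Total counts ran from 32277156 to 47563119 per library. Reads over the whole Bmal1 gene did not separate the genotypes, with 9.89 to 26.9 CPM (read counts scaled to library size, with TMM factors) in control and 2.10 to 24.1 CPM in knockout microglia, and 94.4 to 136 and 79.9 to 124 CPM in control and knockout retina. A whole-gene count can hold reads outside a deleted part, so it does not check the genotype labels. All 12 microglial markers had over 3 reads in both microglia groups, with a summed level of 50993 to 60760.5 CPM against 8.20 to 22.3 CPM in retina. The 12 rod markers summed to 5514 to 12619 CPM in microglia and 122432 to 223663 CPM in retina. The number of genes with a count did not overlap between genotypes, with 18654 to 19363 in control and 17343 to 18438 in knockout microglia, and 16510 to 18715 in control and 18761 to 19713 in knockout retina. In bulk samples, fewer cells of a type and less RNA per cell cannot be told apart.

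Per kilobase of exon (RPKM), the microglial transcripts of the family were mostly those of Timp2, Mmp14 and Mmp2. Timp2 stood at 322 ± 12.1 RPKM in control microglia (SD, n = 4), rank 96 of 24998 genes with a count, and at 308 ± 10.95 RPKM in knockout microglia (n = 5). Mmp14 followed at 19.5 ± 2.60 and 18.5 ± 5.23 RPKM, and Mmp2 at 11.96 ± 4.31 and 34.0 ± 14.4 RPKM. Timp2 made up 98.7% to 99.9% of the TIMP sum in every microglia library, and Mmp14 and Mmp2 together 89.4% to 99.3% of the sum of the 6 MMPs. The remaining 7 genes had means under 2 RPKM in both microglia groups.

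Retina also had Timp2 as its highest member per kilobase, with Timp3 next. Timp2 had 19.8 ± 12.2 RPKM in controls and 40.9 ± 10.5 in knockouts, and Timp3 4.69 ± 2.95 and 8.37 ± 2.12. Mmp2 had 3.90 ± 2.66 and 4.22 ± 1.20 RPKM and Mmp14 2.80 ± 1.41 and 7.10 ± 3.01, so that these neighbours did not differ beyond their spread in controls. Mmp24, Mmp9 and Mmp15 had 1.37 ± 1.11, 1.28 ± 1.14 and 0.918 ± 0.638 RPKM in control retina, again within each other's spread.

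**Figure D1:**
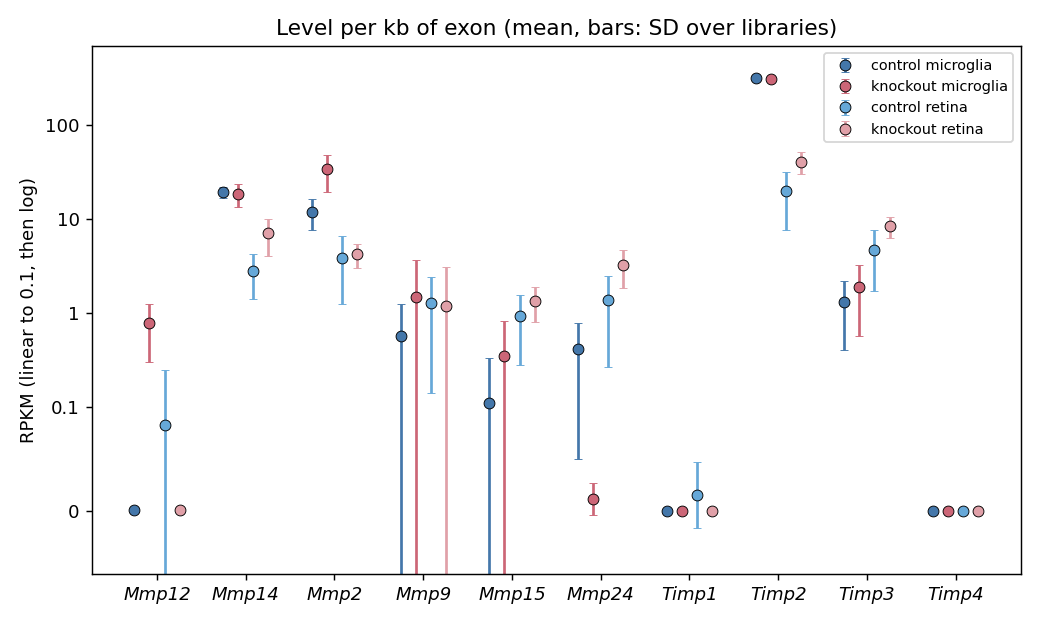
Mean RPKM of each gene in the 4 groups on an axis that is linear to 0.1 and logarithmic above, with bars for the SD over libraries (n = 4 in controls, n = 5 in knockouts). Timp2 lies above all other members in every group, and Timp1 and Timp4 lie at or near 0.

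Mmp12 was present in knockout microglia and nearly absent from control microglia. It encodes the macrophage elastase and lies on chromosome 9, 7344381 to 7369499, plus strand (ENSMUSG00000049723, GRCm38). Control microglia had 0, 0, 1 and 0 reads in replicates 1 to 4. Knockout microglia had 387, 311, 121, 147 and 62 reads in replicates 1 to 5, or 9.66, 8.60, 3.17, 4.98 and 1.64 CPM. The groups did not overlap: each of the 5 knockout libraries had 62 reads or more, and no control library had more than 1.

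Summed over the groups, 1028 reads stood against 1, 859 times more per total count. The 95% interval of that ratio, 154 to 33951, covers counting error only, because amplified reads are not independent molecules. In the authors' deposited table Mmp12 has a log2 change of 9.16. Even in knockouts the level was low, at 0.775 ± 0.476 RPKM. Only 5 of 55487 genes had 0 to 3 reads in every control microglia library and 50 or more in every knockout one, namely Dtl, Hoxc8, Mmp12, Pbk and Sorbs3, and 4 genes showed the opposite pattern. These names, apart from Mmp12, were chosen after their values were seen.

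In retina Mmp12 had reads in the opposite genotype. Control replicate 4 held 116 reads (2.39 CPM), the other 3 control libraries 0, and the knockout libraries 0, 1, 0, 0 and 0. The gene did not pass the filter on low counts in retina and was not tested there. Knockout retina thus held 1 read in all, against 1028 in knockout microglia.

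Markers of monocytes and border macrophages, cells that are also CD11b+, were present in the microglia libraries. The 12 markers summed to 531, 345, 51.6 and 86.5 CPM in control microglia 1 to 4 and to 531, 361, 657, 194 and 491 CPM in knockouts 1 to 5, with 11 of 12 over 3 reads in either group and Cd209f at 0 in both. The group medians of these sums were 216 and 491 CPM, and the 2 ranges overlapped. Of the 10 markers tested between genotypes in microglia, 9 had a log2 change above 0. EdgeR called 0 of them, against 0.115% of all 14835 genes tested. Their median log2 change was 0.80, beside -0.01 over all genes. The list pools both cell types, and single markers differed. Control and knockout means were 65.9 and 136 CPM for Mrc1, 84.7 and 139 for F13a1, 13.3 and 36.8 for Cd163 and 3.95 and 9.30 for Ly6c2. Plac8 (10.98 and 11.9 CPM) and Vcan (2.33 and 2.43) were nearly level, and Ccr2 was lower in knockouts (16.8 and 13.1). The part of these cells in the Mmp12 difference was not tested.

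The sequence before an annotated start of Mmp12 is shown because it holds the motif match found among the members. The RefSeq promoter table for GRCm38.p6, with 250 bases before and 50 after each start, held 9 promoters of 8 members (not Mmp2 or Mmp9). The E-box CACGTG, the element that BMAL1 is known to bind, was found in 0 of the 9, against 7.15% of all 32851 promoters of 300 bases. The AP-1 site TGANTCA was found in 1 of the 9, against 7.81% of all promoters. Both motifs read the same on either strand, so both strands were searched, and no member promoter held both. The AP-1 match, in capitals, begins 44 bases before the second of the Mmp12 starts in the table, and the 250 bases before that start, at chr9:7347124-7347373 on the plus strand, are printed.
Mmp12: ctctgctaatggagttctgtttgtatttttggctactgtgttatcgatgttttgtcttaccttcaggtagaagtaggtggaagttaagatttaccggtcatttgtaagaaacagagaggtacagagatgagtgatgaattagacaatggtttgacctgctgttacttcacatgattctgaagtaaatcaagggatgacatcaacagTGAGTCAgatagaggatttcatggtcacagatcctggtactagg

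A match is a run of letters and does not show that a factor binds there. Likewise, the E-box letters being absent from these windows says nothing about BMAL1 elsewhere in the genes.

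Mmp2, the gelatinase that cuts collagen IV and denatured collagen, had higher levels in every knockout microglia library than in any control, but did not pass the test across all genes. The gene lies on chromosome 8, 92827291 to 92853420, plus strand (ENSMUSG00000031740). Control microglia had 61.9, 36.1, 31.0 and 32.3 CPM in replicates 1 to 4, from 6406 reads in all. Knockouts had 87.4, 181, 151, 69.2 and 84.8 CPM in replicates 1 to 5, from 21054 reads. The groups were separated by the gap between control replicate 1 and knockout replicate 4.

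The log2 change of Mmp2 in microglia was 1.503 (SE 0.34, edgeR adjusted p = 0.244, unadjusted p = 0.0016), a fold of 2.83. The call depended on the tool. DESeq2 gave an adjusted p of 0.00156, and Mmp2 had an adjusted p of 0.0019 with a log2 change of 1.48 in the authors' deposited table. Leaving out each library in turn gave log2 changes of 1.28 to 1.79 with edgeR adjusted p from 0.156 to 0.588. Control retina held Mmp2 at 9.90, 2.63, 23.6 and 16.5 CPM, and knockout retina at 17.4, 16.1, 7.41, 16.5 and 13.8 CPM. The control values span the knockout values. The log2 change there was 0.08 (SE 0.56, edgeR adjusted p = 0.98), and the difference between the effects in the fractions was 1.39 (SE 0.67, adjusted p = 0.409).

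Of the 7 members tested in microglia, edgeR called 1, Mmp12, against 0.115% of all 14835 genes tested. Groups did not overlap for 3 (Mmp12 and Mmp2 higher, Mmp24 lower in knockouts), against 3.29% of all genes tested. That 1 call was lost in 8 of 9 refits without a single library, all but that without knockout 5, and in 4 of 7 other alternatives. Nothing is read from these shares, since the members were chosen with this contrast known. Their median log2 change was 0.56, beside -0.01 over all genes.

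Mmp14, the membrane protease that cuts collagens and activates MMP2, had overlapping levels in the 2 genotypes in microglia. It lies on chromosome 14, 54431612 to 54445364, plus strand (ENSMUSG00000000957). Control microglia had 100.4, 115, 111 and 137 CPM from 18161 reads, and knockouts 145, 67.2, 101, 136 and 103 CPM from 20010 reads. Its log2 change was -0.07 (SE 0.22, edgeR adjusted p = 0.999), with knockout replicate 2 the lowest and knockout replicate 1 the highest of the 9. In knockout replicate 2, Mmp14 was at its lowest and Mmp2 at its highest among the microglia libraries, and the ratio of Mmp2 to Mmp14 in RPKM was 4.76.

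In retina Mmp14 was higher in every knockout than in any control. The 4 controls stood at 16.6, 5.09, 20.7 and 24.5 CPM, from 3029 reads, and the 5 knockouts at 26.0, 32.02, 42.8, 72.3 and 38.4 CPM, from 8856 reads. The gap between the groups, from 24.5 to 26.0 CPM, was small beside the spread within them. The log2 change in retina was 1.29 (SE 0.46, edgeR adjusted p = 0.219), which did not pass. In the authors' deposited table it is 1.28 with an adjusted p of 0.0669. In a fit with a covariate for how many genes each library detected, chosen after seeing the data, it was 0.05. Detected genes do not overlap between the genotypes, so that number and the genotype cannot be told apart. The difference between the effects in microglia and retina was -1.41 (SE 0.53, edgeR adjusted p = 0.265).

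**Figure D2:**
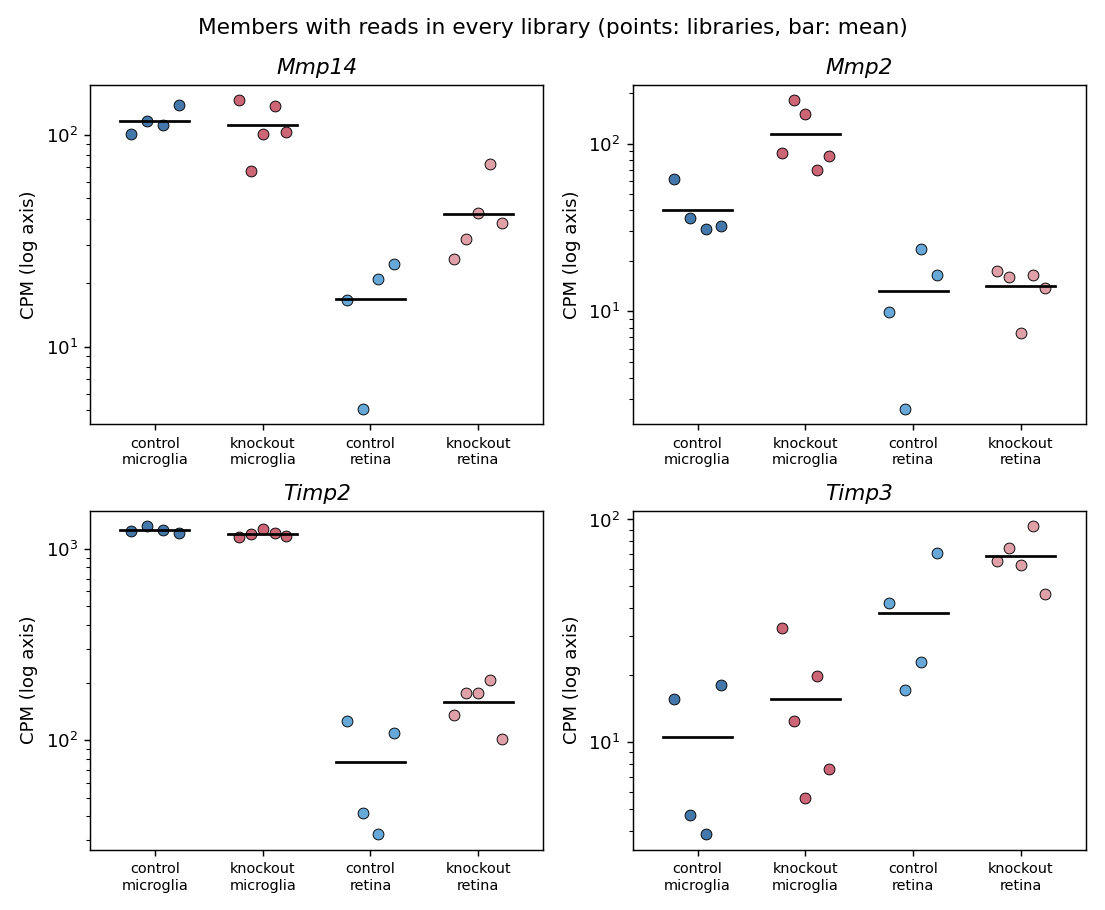
CPM of Mmp14, Mmp2, Timp2 and Timp3 in each library, on log axes, with the mean of each group as a bar. Mmp2 is higher in all 5 knockout than in all 4 control microglia libraries, while Timp2 in microglia stays between 1156 and 1316 CPM.

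Mmp24, which encodes the membrane protease MT5-MMP of the nervous system, was low in microglia, with values in every knockout library below those of the controls. It lies on chromosome 2, 155775342 to 155818366, plus strand (ENSMUSG00000027612). Control microglia had 56, 62, 17 and 162 reads and knockouts 5, 5, 0, 0 and 0. The groups did not overlap, with 297 reads in all against 10, or 35.6 times fewer per total count (counting interval 19.1 to 74.9). Their means were 1.94 and 0.0526 CPM. The fitted log2 change was -5.11 (SE 1.36, edgeR adjusted p = 0.375), so it did not pass. It passed under none of the alternatives run either, with log2 changes of -5.77 to -2.27 and adjusted p from 0.0549 upward. The value of -2.27 came from the covariate for detected genes.

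In retina Mmp24 had 652, 0, 297 and 268 reads in controls and 750, 828, 876, 478 and 239 in knockouts, or 6.44 ± 5.18 and 15.3 ± 6.71 CPM on average. The groups overlapped, with control replicate 2 at 0 reads and control replicates 1 and 3 inside the knockout range (log2 change 1.20, SE 1.13, edgeR adjusted p = 0.75). With the covariate for detected genes the change was 0.05. The difference between the effects in the fractions was -6.35 (SE 1.94, edgeR adjusted p = 0.167), and DESeq2 called this difference (adjusted p = 0.00489). Both fits rest on the 10 reads of knockout microglia, so nothing is read from that call. Of the exon bases of Mmp24, 13.6% are shared with BC029722 on the opposite strand, and the sources used here do not say whether counting used strand, so reads in the shared bases cannot be told apart. BC029722 had 18.4 to 27.6 CPM in control and 18.9 to 32.9 CPM in knockout microglia, ranges that overlap.

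Mmp9, the other gelatinase, and Mmp15, another membrane-type protease, were found in some libraries of a group and not in others. They lie on chromosome 2, 164940780 to 164955850 (ENSMUSG00000017737), and on chromosome 8, 95352268 to 95375080 (ENSMUSG00000031790), both on the plus strand. Mmp9 had 1, 123, 193 and 0 reads in control microglia and 378, 4, 0, 0 and 638 in knockouts. In retina it had 364, 1, 336 and 115 reads in controls and 234, 0, 0, 0 and 644 in knockouts. Mean levels were 2.01 and 5.29 CPM in control and knockout microglia and 4.53 and 4.21 CPM in control and knockout retina. The groups overlapped in both fractions, with log2 changes of 1.39 (SE 2.31) in microglia and -0.13 (SE 2.14) in retina (edgeR adjusted p = 0.999 and 0.995).

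Neutrophils are known to store MMP9, and some microglia libraries held granulocyte transcripts. Of the 11 marker genes, 8 had over 3 reads in control and 5 in knockout microglia. Csf3r had 73584 and 86371 reads in control and knockout microglia, or 456 to 501 and 358 to 560 CPM in single libraries. Knockout 5, with 0 reads of the other 10 markers, was among them, so Csf3r does not set granulocytes apart here. Ngp had 2779 and 21 reads, Ltf 2005 and 0, S100a9 1379 and 229, S100a8 1366 and 166, and Camp 397 and 0. Ly6g had 46 and 4, Retnlg 26 and 2, Cxcr2 2 and 2, Mpo 0 and 1 and Elane 0 and 2. The 10 genes other than Csf3r, summed after the data were seen, had 4, 4050, 3934 and 12 reads in controls 1 to 4 and 175, 5, 183, 64 and 0 in knockouts 1 to 5, or 0.0959 to 104.5 and 0 to 4.79 CPM. Control libraries 2 and 3, the 2 controls with over 3 reads of Mmp9, were the 2 with 3934 or more of these reads. Knockouts 1 and 5, with 378 and 638 reads of Mmp9, had 175 and 0 of them, and knockout 3, with 0 reads of Mmp9, had 183. The part of neutrophils in the Mmp9 reads was not tested.

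Mmp15 had 0, 0, 0 and 88 reads in control microglia and 190, 168, 0, 0 and 0 in knockouts, and did not pass the filter there. Retina held it more steadily, with 423, 3, 243 and 257 reads in controls and 394, 317, 235, 436 and 140 in knockouts, or means of 4.95 and 7.31 CPM. The groups overlapped (log2 change 0.51, SE 0.91, edgeR adjusted p = 0.895). It turned to -0.67 with the covariate for detected genes.

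**Figure D3:**
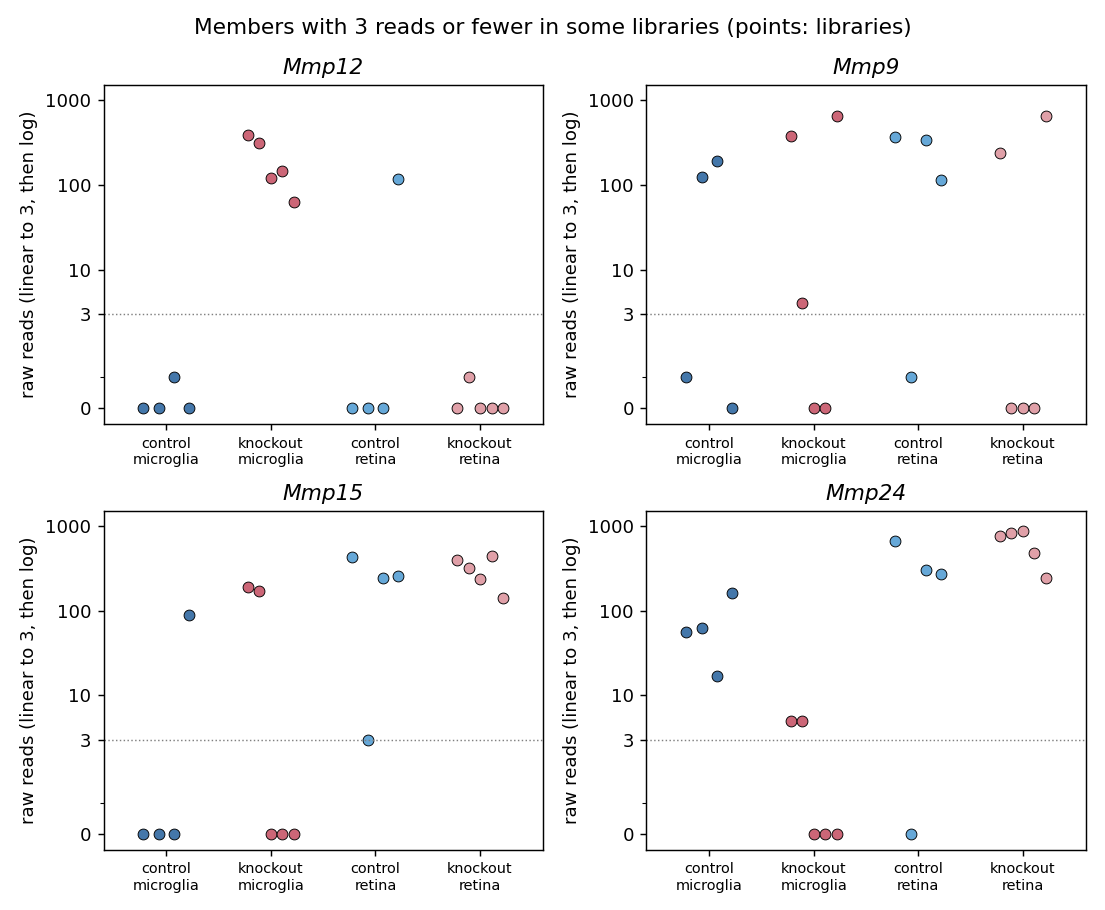
Raw reads of Mmp12, Mmp9, Mmp15 and Mmp24 in each library, on an axis that is linear to 3 reads (dotted line) and logarithmic above. Values fall mostly at 0 to 3 or above 50 reads, and Mmp12 is above 50 in all 5 knockout microglia libraries and in control retina replicate 4.

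Presence in some libraries and near absence in others was common at such levels. Over the 18 libraries, Mmp12, Mmp9, Mmp15 and Mmp24 had 0 to 3 reads in 12, 8, 7 and 4, and 50 reads or more in 6, 9, 11 and 11. Among all genes with a mean of 1 to 10 CPM, 58.0% of 4985 in microglia and 54.3% of 5185 in retina had both a library with 0 to 3 reads and another with 50 or more.

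Timp2, the inhibitor that also serves in MMP2 activation, was the most abundant member per kilobase and varied little between microglia libraries. It lies on chromosome 11, 118301069 to 118355740, minus strand (ENSMUSG00000017466). Control microglia had 1237, 1316, 1258 and 1204 CPM from 197049 reads, and knockouts 1156, 1196, 1267, 1216 and 1175 CPM from 218252 reads. Its log2 change was -0.06 (SE 0.05, edgeR adjusted p = 0.999), and the groups overlapped.

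In retina Timp2 split the controls. Replicates 1 to 4 had 126, 41.5, 32.1 and 109 CPM from 14605 reads, and the knockouts 135, 176, 177, 206 and 101 CPM from 33405 reads. Of the knockouts, replicate 5 lay within the control range and the other 4 above it. Timp2 had a log2 change in retina of 0.99 (SE 0.42, edgeR adjusted p = 0.315, unadjusted p = 0.0401), and 0.985 with an adjusted p of 0.0771 in the authors' deposited table. It turned to -0.17 with the covariate for detected genes. Microglial RNA in this fraction was small by the markers, at 8.20 to 22.3 CPM summed over 12 genes, and its mean was 16.9 CPM in controls and 17.04 in knockouts. The difference between the Timp2 effects in the fractions was -1.10 (SE 0.44, edgeR adjusted p = 0.309).

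Timp3, the matrix-bound inhibitor, had higher mean levels in retina than in microglia. It lies on chromosome 10, 86300372 to 86349506, plus strand (ENSMUSG00000020044). In control retina it stood at 42.2, 17.1, 22.9 and 70.5 CPM, and in knockout retina at 64.9, 74.2, 62.3, 93.4 and 46.3 CPM. Control replicate 4 lay within the knockout range and the other 3 controls below it. Its log2 change there was 0.79 (SE 0.40, edgeR adjusted p = 0.433), and it turned to -0.38 with the covariate for detected genes. Control microglia held Timp3 at 15.6, 4.72, 3.85 and 17.96 CPM, and knockout microglia at 32.4, 12.4, 5.60, 19.9 and 7.54 CPM, which overlap (log2 change 0.56, SE 0.67, edgeR adjusted p = 0.999).

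Timp3 lies inside Syn3, a synapsin gene on the opposite strand, and 21.3% of its exon bases are shared with Syn3. Syn3 had 0 and 87 reads in control and knockout microglia and 232 and 848 in control and knockout retina, few beside the 1652, 2833, 7111 and 14325 reads of Timp3. The pigment epithelium, a known source of TIMP3, had low marker levels in retina. Its 10 markers summed to 2.05 to 11.9 CPM in controls and 0 to 7.32 in knockouts. Of the 10, 8 had over 3 reads in controls and 3 in knockouts. Lrat was at 0 reads in controls, and Rpe65, Ttr and Tyrp1 were at 0 in knockouts. The part of the pigment epithelium in the Timp3 values was not tested.

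Markers of other cell types also differed between the retina groups. Cone markers summed to 795 to 1825 CPM in control and 2693 to 6444 CPM in knockout retina (4 of 9 rose by edgeR), and bipolar markers to 459 to 998 and 1647 to 3057 CPM (6 of 10 rose). Over all 15332 genes tested in retina, edgeR called 1.66% in either direction. Rod markers summed to 152266 to 223663 CPM in control and 122432 to 152937 CPM in knockout retina (5 of 12 fell), and pericyte markers to 14.1 to 50.7 and 22.5 to 167 CPM (0 of 5 tested passed). The Mueller glia markers, 11 of 11 with over 3 reads, summed to 2494, 1663, 3052 and 4283 CPM in control and 4193, 4877, 4627, 6347 and 3304 CPM in knockout retina. Endothelial markers (8 of 9 with over 3 reads in controls, where Tie1 was at 0, and 9 of 9 in knockouts) summed to 206, 87.8, 92.0 and 229 CPM in control retina, below all 5 knockouts with 458, 428, 390, 452 and 248 CPM. Most of that sum was Kdr, with means of 103 and 256 CPM beside mean sums of 154 and 395 CPM. Mean levels of Cdh5 (0.336 and 0.313 CPM), Tek (5.67 and 4.86) and Emcn (2.01 and 1.24) were lower in knockouts, and those of the other 6 higher. Control replicates 2 and 3, low in Timp2 and Timp3, were also the lowest in endothelial markers, and control replicate 2 was the lowest in Mueller glia markers and in Mmp14, Mmp2, Mmp15 and Mmp24. Control replicate 3, however, stood above control replicate 1 in Mueller glia markers (3052 and 2494 CPM). Of these lists, edgeR called 0 of 11 Mueller glia and 1 of 9 endothelial genes, against the same 1.66% of all genes. Log2 changes were above 0 for 11 and 6 of them, against 50.2% of all genes. An edgeR unadjusted p under 0.05 was met by 5 and 3, against 2180 of all 15332 genes. The part of these cell types in the Mmp14, Timp2 and Timp3 values was not tested.

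Timp1, the inducible inhibitor of injury and inflammation, and Timp4 were not detected beyond stray reads. Timp1 had 2 reads in all, both in control retina replicate 2, and Timp4 had 0 in the 18 libraries. They lie on chromosome X, 20870166 to 20874735, plus strand (ENSMUSG00000001131), and on chromosome 6, 115241892 to 115252205, minus strand (ENSMUSG00000030317). A count of 0 allows up to 3 counts, or between 0.0631 and 0.0929 CPM per library. Timp1 lies inside Syn1 with no shared exon bases, and Timp4 inside Syn2 with 1.53% of its exon bases shared.

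Across both fractions, the genotype effect differed for 1 of 8 tested members, Mmp12, against 0.469% of all 18128 genes, a contrast that contains the microglia difference and from which nothing is read.

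Of the 7 members tested in retina, edgeR called 0 between genotypes, against 1.66% of all 15332 genes. An edgeR unadjusted p under 0.05 was met by 2 (Mmp14 and Timp2), against 2180 of all 15332 genes. DESeq2 and limma voom also called 0 of the 7. Groups did not overlap for 1, Mmp14, against 8.71% of all genes. The median log2 change of the 7 was 0.79, beside 0.00 over all genes, and 6 were above 0, against 50.2% of all genes.

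**Figure D4:**
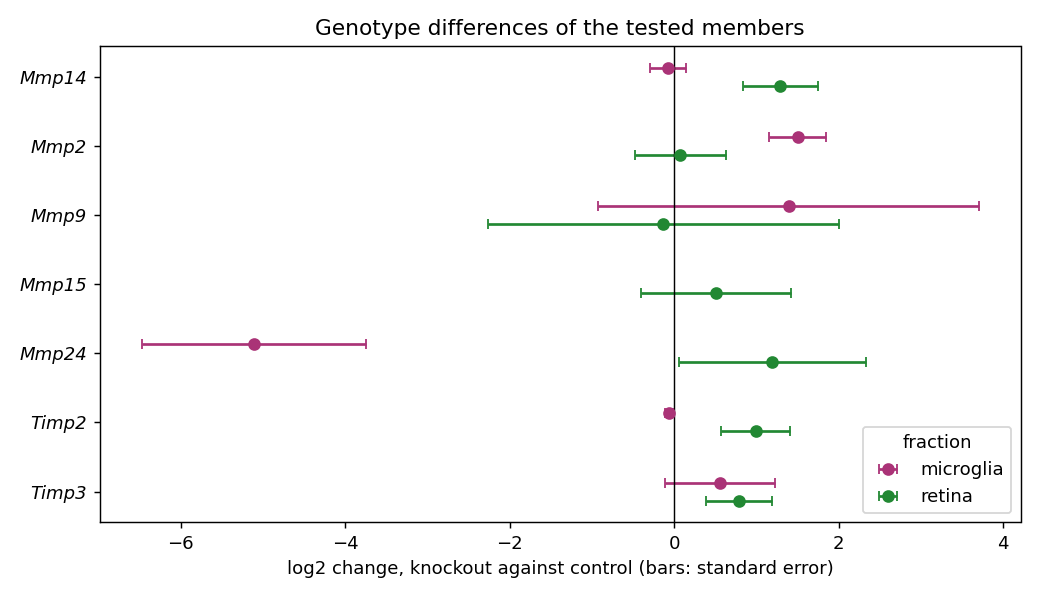
Log2 change of knockout against control for the members tested other than Mmp12, with bars for the standard error, in microglia (4 against 5 libraries) and retina (4 against 5). Mmp2 in microglia (1.503) and Mmp14 (1.29), Timp2 (0.99) and Timp3 (0.79) in retina lie right of 0 by more than a standard error, and Mmp24 in microglia lies at -5.11.

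The balance of inhibitor to protease transcripts was lower in each knockout microglia library than in any control. It was taken over the 10 members, without the other 17 MMP genes. The summed TIMP level over the summed MMP level, both in RPKM, was 8.99, 10.8, 11.01 and 9.15 in control and 5.45, 4.598, 5.25, 7.13 and 6.38 in knockout microglia, which do not overlap. The TIMP sums were 311 to 338 and 301 to 326 RPKM, and the MMP sums 29.4 to 35.5 and 44.1 to 67.1 RPKM. Mean MMP sums were 32.5 and 55.2 RPKM, and Mmp2 alone had means of 11.96 and 34.0 RPKM. The lower ratio thus mostly restates the Mmp2 difference, which edgeR did not call (adjusted p = 0.244). The ratio of Mmp2 to Mmp14 was 1.09, 0.553, 0.492 and 0.416 in controls and 1.07, 4.76, 2.63, 0.897 and 1.46 in knockouts, with control replicate 1 inside the knockout range. In retina the TIMP to MMP ratio ran from 0.702 to 7.72 in controls and from 1.91 to 3.57 in knockouts. These sums hold transcripts, not active enzyme, and are given with no test.

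**Figure D5:**
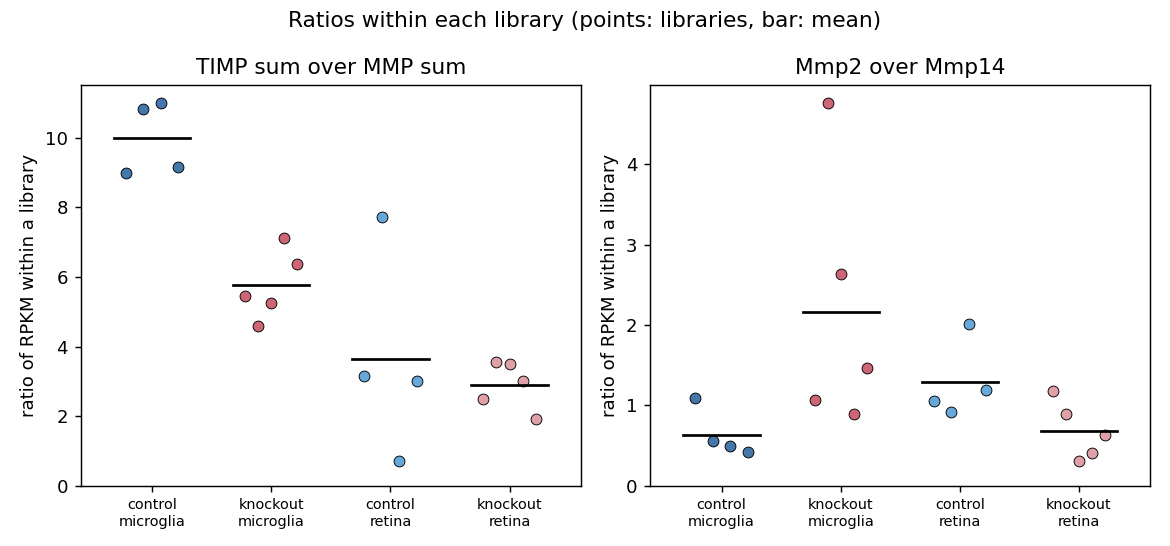
Ratio within each library of the summed TIMP to the summed MMP level (left) and of Mmp2 to Mmp14 (right), both from RPKM, with group means as bars. The TIMP to MMP ratio is 8.99 or more in control microglia and 7.13 or less in knockout microglia.

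Between the fractions, microglia had more Timp2 and Mmp14 than retina in both genotypes. In controls Timp2 was higher by 3.98 (log2, SE 0.48, edgeR adjusted p = 0.000343) and Mmp14 by 2.75 (SE 0.45, adjusted p = 0.00167). In knockouts Timp2 was higher by 2.84 (SE 0.19, edgeR adjusted p = 9.11e-07) and Mmp14 by 1.31 (SE 0.31, adjusted p = 0.00575). The groups did not overlap for either gene in controls, and in knockouts they did not overlap for Timp2 but did for Mmp14. These comparisons use the same libraries as those between genotypes.

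Mmp2 was higher in knockout microglia than in knockout retina by 2.93 (log2, SE 0.34, edgeR adjusted p = 6.18e-05). In controls the difference was 1.57 (SE 0.61, edgeR adjusted p = 0.0735), which did not pass, though DESeq2 (adjusted p = 0.0231), limma voom (0.0249) and the edgeR refit without control retina 3 (0.0434) called it. Timp3 was lower in microglia by 2.21 in knockouts, a log2 difference of -2.21 (SE 0.47, edgeR adjusted p = 0.00312), and stood at -1.90 in controls (SE 0.67, adjusted p = 0.0532). The control value passed in edgeR without control retina 2 (adjusted p = 0.0447) or control microglia 4 (0.0482) and in DESeq2 (0.0127). Mmp24 stood at -8.15 in knockouts (SE 1.30, edgeR adjusted p = 0.000498) and -1.77 in controls (SE 1.49, adjusted p = 0.38). Knockout microglia held 10 reads of Mmp24 in all, against 3171 in knockout retina. The gene passed the filter among the knockouts only through retina, so nothing is read from its call there. Mmp15 did not pass in either genotype (-3.08, SE 2.23, and -2.04, SE 1.68). It did in controls without control microglia 4 (edgeR adjusted p = 0.0209) and in knockouts by limma voom (0.0143). Control microglia 4 held all 88 reads of Mmp15 in control microglia, and 3 of 5 knockout microglia libraries had 0. Nothing is therefore read from either call.

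In controls 2 of 7 tested members were called between the fractions, against 40.2% of all 15188 genes. In knockouts 6 of 7 were called, against 44.9% of 15211. Groups did not overlap for 3 of 7 in controls, against 49.5% of all genes, and for 5 of 7 in knockouts, against 45.2%. Both knockout counts include Mmp12 and Mmp24, which passed the filter through 1 fraction only, so nothing is read from them. The shares in controls are thus near or below those of genes at large.

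Most other MMP genes had few reads. Of the 17 outside the members, Mmp1a, Mmp1b, Mmp3, Mmp7, Mmp10 and Mmp20 had 0 reads in all libraries. Mmp17 had the most, with 142 and 786 reads in control and knockout microglia and 3324 and 3671 in control and knockout retina. The collagenase gene Mmp13 had 208 and 713 reads in microglia, found in 3 libraries, and 0 in retina. EdgeR called 0 of 6 tested in microglia and 0 of 3 in retina, against 0.115% and 1.66% of all genes. In either fraction 0 had an edgeR unadjusted p under 0.05. The smallest p in microglia were those of Mmp8 (2.02, SE 2.19) and Mmp19 (1.89, SE 2.21), and in retina those of Mmp11 (2.72, SE 2.40) and Mmp16 (1.56, SE 2.15), as log2 changes.

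Among the related ADAM and ADAMTS proteases, 1 of 12 tested in retina rose and 0 fell, while edgeR called 1.66% of all 15332 genes there. Adamts1, which cuts proteoglycans, rose in retina by 0.98 on the log2 scale (SE 0.17, edgeR adjusted p = 0.0305), the 2 groups having 29.7 ± 3.19 and 60.4 ± 10.9 CPM. The call was lost in 6 of 9 refits without a library, namely control 1, 2 or 3 or knockout 2, 3 or 4 (adjusted p up to 0.0811), with no filter (0.0585) and with the covariate for detected genes (0.575). In microglia 0 of 11 passed, against 0.115% of all 14835 genes tested. An edgeR unadjusted p under 0.05 was met by 1 of the 11, against 855 of the 14835. Adam15 and Adam19 had log2 changes there of 0.36 and 1.87.

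Of activators and regulators of MMPs, 0 of 14 passed in microglia and 0 of 14 in retina, against 0.115% and 1.66% of all genes tested. In edgeR 3 and 6 were at an unadjusted p under 0.05, against 855 of 14835 and 2180 of 15332 of all genes tested. Cd44, a hyaluronan receptor that can dock MMP9, had 20.4 ± 8.86 and 44.1 ± 17.9 CPM in control and knockout microglia (1.11, SE 0.43, edgeR adjusted p = 0.763). Bsg, the MMP inducer basigin, had 781 ± 38.8 and 904 ± 93.2 CPM (0.21, SE 0.08, adjusted p = 0.782). In retina Lrp1, an endocytic receptor that clears MMP and TIMP complexes, had 23.6 ± 10.03 and 64.3 ± 24.5 CPM (1.41, SE 0.38, edgeR adjusted p = 0.108). The plasminogen activator gene Plat had 12.6 ± 2.86 and 27.3 ± 8.73 CPM (1.08, SE 0.30, adjusted p = 0.108). DESeq2 called both in retina (adjusted p = 0.00541 for Lrp1 and 0.00558 for Plat), and edgeR called Lrp1 without knockout 5 (0.0362).

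Of matrix proteins that MMPs cut, 0 of 10 passed in microglia, and edgeR called 1 of 17 higher in retina. Over all genes tested, it called 0.115% in microglia and 1.66% in retina. In microglia 1 was at an edgeR unadjusted p under 0.05, against 855 of all 14835 genes tested. Sparc, a collagen-binding protein abundant in microglia, had 5477 ± 284 and 6736 ± 569 CPM (0.30, SE 0.07, edgeR adjusted p = 0.262). DESeq2 called Sparc (adjusted p = 0.00171). The basement membrane gene Nid2 had a log2 change of 0.61. Fbn1, the microfibril gene fibrillin, had 0 reads in all 4 control retina libraries and 1057 reads over the 5 knockouts. That is 304 times more per total count if the control group is given an assumed 3 counts. EdgeR called Fbn1 (adjusted p = 0.0301), but the gene passed the filter on low counts only through the knockouts, so nothing is read from the call. Each of the 5 knockout libraries had over 3 reads. Refits without a library lost the call in 4 of 9 cases, control 3 and knockouts 1, 2 and 4 (adjusted p up to 0.0703), as did the covariate for detected genes (0.347).

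Of the synapsin genes around the Timp genes, Syn1 rose in retina by 1.54 on the log2 scale (SE 0.29, edgeR adjusted p = 0.038), the 2 groups having 41.4 ± 16.9 and 124 ± 26.2 CPM. That call was lost in 7 of 9 refits without a library, all but those without control 4 or knockout 5 (adjusted p up to 0.0901), with no filter (0.0528) and with the covariate for detected genes (0.55). The other 2 tested did not pass, and edgeR called 1.66% of all genes tested in retina. In microglia Syn1 and Syn2 had log2 changes of -1.87 (SE 2.13) and 1.71 (SE 2.33), and 0 of 2 passed, against 0.115% of all genes. Single libraries moved both values. Without knockout 3, Syn1 stood at -11.36 (edgeR adjusted p = 0.0469), and without control 2, Syn2 stood at 9.24 (adjusted p = 0.909). Syn1 had 0 to 3 reads in 4 of the 5 knockout microglia libraries, so nothing is read from its call.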

How the data were processed

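RNA of sorted cells was amplified with a low-input cDNA kit and sequenced as paired reads, per the labels' protocols. The authors deposited raw counts per gene. The submitters' processing notes name DRAGEN, STAR 2.7.9a, Subread and featureCounts with the build GRCm38, without roles. For each knockout comparison the authors deposited their own results: log2 values (fold change and mean level), a score (the likelihood ratio) and p-values, raw and adjusted, per the file headers.

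Of 55774 lines, 287 were dropped as repeats of a gene identifier whose counts were the same, and 55227 of the 55487 genes were found in GENCODE M21, which gave names, positions and exon lengths. Printed CPM and RPKM use TMM factors computed over all 18 libraries. Tests were run in R 4.3.3 with edgeR 4.0.16 (quasi-likelihood), using filterByExpr, TMM within the libraries compared and Benjamini-Hochberg adjustment over all genes tested, called at an adjusted p under 0.05. SE is the log2 change over the root of F. Each genotype comparison used 9 libraries, the difference between fractions all 18, and the fractions 8 control or 10 knockout libraries. The fitting code was tested on simulated data. Total counts of 32277156 to 47563119 per library make 3 counts worth 0.0631 to 0.0929 CPM.

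Alternatives were DESeq2 size factors, no filter, 1 CPM in 4 libraries, DESeq2 1.42.0, limma 3.58.1 voom, the replicate number as a block and leaving out each library. A covariate for how many genes a library detected was added after seeing the data. Members, gene lists, motifs and tests were chosen with earlier results of these data known. Named genes are the 10 members and, of each other list, those called in a genotype comparison or else the 2 with the smallest p. For Mmp12, Timp2 and Timp3, the 5 genes with the highest correlation are also named.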

Additional observations from a re-analysis of the deposited data

Results flagged for a closer look

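Of 30 sets of values (a member in a group, with over 3 reads in some library), 3 had a highest library far from the rest by Dixon's criterion. Chance meets it in about 1 in 20 groups of normally distributed values. Sets with 0 in the other 3 libraries, as for Mmp12 and Mmp15, meet it whatever the remaining value, so the flag adds nothing there. Mmp12 had 2.39 CPM in control retina replicate 4 and 0 in the other 3. Mmp15 had 2.38 CPM in control microglia replicate 4 and 0 in the other 3. Mmp2 had 61.9 CPM in control microglia replicate 1, against 31.0 to 36.1 CPM in the other 3.

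The Mmp12 genotype effect differed between the fractions by 15.51 on the log2 scale and was called by edgeR, a fitted value that depends on groups with almost no reads. It contains the microglia difference known when the gene was picked, so no p is given. The calls in this comparison were 0.469% of 18128 genes. The retina side rests on the 116 reads of control replicate 4: without that library the difference was 7.88 and was not called. The call was lost in 7 of 18 fits without a library and with the replicate number as a block.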

How the results depend on the processing

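Counts of genes called depended on the tool and on single libraries. In microglia 17 genes were called, 8 with no filter, 237 with DESeq2, 26 with limma voom and 5 with a covariate for detected genes, and 4 to 21 when a library was left out. In retina 255 were called, 120 with no filter, 1184 with DESeq2, 2 with that covariate, and 96 to 342 when a library was left out. The effects differed between fractions for 85 genes, 1090 with DESeq2 and 145 with limma voom, and 51 to 143 when a library was left out. The comparisons of fractions stayed within 1.5 times of their 6100 and 6825 calls under every alternative run. With the replicate number as a block, 2, 0 and 9 genes were called in microglia, retina and the difference between fractions (2208 at an unadjusted p under 0.05 in retina). The block also ended the retina calls of Adamts1, Fbn1 and Syn1 (edgeR adjusted p = 0.179, 0.253 and 0.168) and made Timp3 pass between the control fractions (0.0124). Same-numbered libraries did not vary together (correlations of -0.05 to 0.06 over all pairs, highest with their own number in 2 of 4, 3 of 5, 1 of 4 and 1 of 4 pairs), and they were not treated as pairs. Whether a number marks the same animal in both fractions is not given in the sources used here.

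Of 623 values of single members under an alternative, 574 kept their direction and side of the threshold and 18 changed direction. Mmp9 in microglia turned to -4.02 with the replicate block. With the covariate for detected genes, the retina values of Mmp2, Mmp9, Mmp15, Timp2 and Timp3 were -0.36, 0.40, -0.67, -0.17 and -0.38, and that of Mmp16 was -1.61. Leaving out a library gave -0.19 to 0.066 for Mmp14 in microglia, -0.26 to 0.53 for Mmp2 and -1.62 to 0.41 for Mmp9 in retina, and -0.75 to 0.10 for the difference between fractions of Timp3. The Mmp12 call in microglia was lost in 8 of the 9 fits without a library and in 4 of 7 other alternatives. The causes were not tested. Timp1 and Timp4 had 0 to 3 reads in all 18 libraries, and Mmp9, Mmp12, Mmp15 and Mmp24 in 4 to 12.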

Other observations

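Across the 9 microglia libraries, the genes most like Mmp12 in log2 CPM, of 12224 compared, were Eif6, C1qa, Pbk, Akr1a1 and C1qc (Pearson r from 0.966 to 0.972). Pbk, a mitotic kinase gene, had 0.00645 and 13.6 CPM in control and knockout microglia, while the complement genes C1qa (4709 and 6037 CPM) and C1qc (6911 and 9372 CPM) were abundant in both. Those most like Timp2 were Syk, Eif4g2, Sall3, Lpin1 and Gpd1l (r from 0.89 to 0.94).

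Across the 9 retina libraries, the genes most like Timp3, of 12508 compared, were F3, Cngb3, Abca8a, Ptn and Ccdc106 (r from 0.97 to 0.99). Abca8a, one of the Mueller glia markers used here, had 99.5 and 184 CPM in control and knockout retina, F3, the tissue factor gene, 3.21 and 13.5 CPM, and Ptn, the growth factor pleiotrophin, 15.1 and 28.7 CPM. These correlations describe libraries that share their genotype groups and are given with no test.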
